A study of Mus musculus with 6 samples.

Results

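The transcripts described here are 10 genes of the Notch pathway: the receptors Notch1, Notch2 and Notch3, the ligands Dll1, Dll4, Jag1 and Jag2, and the transcription factors Hes1, Hes6 and Hey1. They were taken by symbol from the 23284 genes counted in each of 6 RNA-seq libraries of isolated mouse pancreatic islets, and all 10 were among the 14770 genes with enough counts to be tested. All libraries came from islets at 12 weeks of age, with Neurod1-floxed/floxed alleles on a strain given as C56BL/J. The knockout group (libraries 4, 5 and 6) also carried Rip-Cre, a Cre recombinase under the rat insulin promoter, and the control group (libraries 7, 10 and 16) carried the floxed alleles with no Cre. No library carried Cre without the floxed alleles, so effects of the Rip-Cre transgene and of the loss of Neurod1 cannot be told apart. Whether a library is 1 animal or a pool is not stated in the labels, and p-values measure only the spread among the libraries, which may be technical.

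Notch receptors sit in the membrane and are activated by Delta-like (Dll) and Jagged (Jag) ligands on a neighbouring cell. Cleavage by Adam proteases and by gamma-secretase then frees the intracellular part of the receptor, which joins the DNA-binding protein Rbpj and turns on repressors of the Hes and Hey families. In the embryonic pancreas Hes1 holds back Neurog3, the basic helix-loop-helix (bHLH) factor that starts the endocrine programme and acts upstream of Neurod1. Notch1, Notch4, Dll4 and Jag1 are also well known in blood vessel endothelium, and Notch3 in the mural cells (pericytes and smooth muscle) around it, both of which are present in isolated islets.

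The libraries held 12206393 to 20412435 counts, and each of the 10 genes had between 64 and 2170 counts in every library. Neurod1 was at 29.8 ± 1.41 CPM in knockout and 172 ± 29.2 CPM in control libraries (SD, n = 3 each), where CPM is counts per 1e+06 counts after scaling of the library sizes. On the log2 scale Neurod1 fell by 2.53 (SE 0.13, adjusted p = 1.74e-05 by edgeR's quasi-likelihood test). The 9 beta cell markers were all detected in every library, and 3 rose and 2 fell. Ins2 was at 111006 ± 5361 CPM in control and 113090 ± 7417 CPM in knockout libraries and did not pass. Ins1 (-3.50) and G6pc2 (-1.04) fell on the log2 scale, and Pdx1 (0.93), Nkx6-1 (0.47) and Slc2a2 (0.35) rose. The 9 markers summed to 173452 to 191816 CPM in control and 131613 to 148160 CPM in knockout. Ins1 alone went from 48668 ± 3300 to 4307 ± 1529 CPM (SD, n = 3 each), a larger gap than that of the sum. The lower sum is therefore that of Ins1 and not of the list, whose median log2 fold change was 0.27. In bulk RNA, fewer cells of a type and less RNA per cell cannot be told apart. Summed endothelial, fibroblast and alpha cell markers were also lower in the knockout with no overlap between groups, and acinar sums were lower on average but overlapped. The alpha cell sum was mostly Gcg (40116 CPM in control and 29268 CPM in knockout on average), which did not pass (adjusted p = 0.0663).

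Of the 10 Notch genes 5 fell in the knockout, 0 rose and 5 did not pass (edgeR's quasi-likelihood test, Benjamini-Hochberg adjusted over all 14770 genes, threshold 0.05). By DESeq2, and at an unadjusted p under 0.05 in edgeR, 0 rose as well. The ligands Dll1 and Dll4 fell about 2-fold, the factor Hes6 fell 1.56-fold, and the receptors Notch1 and Notch3 fell 1.27-fold and 1.24-fold. Across all genes tested 24.4% passed in either direction, 12.6% as lower and 11.8% as higher in the knockout. The median log2 fold change of the 10 genes was -0.31, beside -0.0075 over all genes tested. In 5 of the 10 genes the highest knockout library lay below the lowest control library, beside 22.0% of all genes tested. These were the same 5 genes that fell, and separate groups go with such a call, so this is no further support for it. In the other 5 the groups overlapped. Dll1, Dll4 and Hes6 passed in each fit that left out 1 library. Such fits called 4, 3 and 3 of the 10 genes without knockout library 4, 5 or 6 (19.1%, 17.8% and 19.7% of all genes tested). They called 3, 4 and 5 without control library 7, 10 or 16 (17.9%, 16% and 18.8%).

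**Figure D1:**
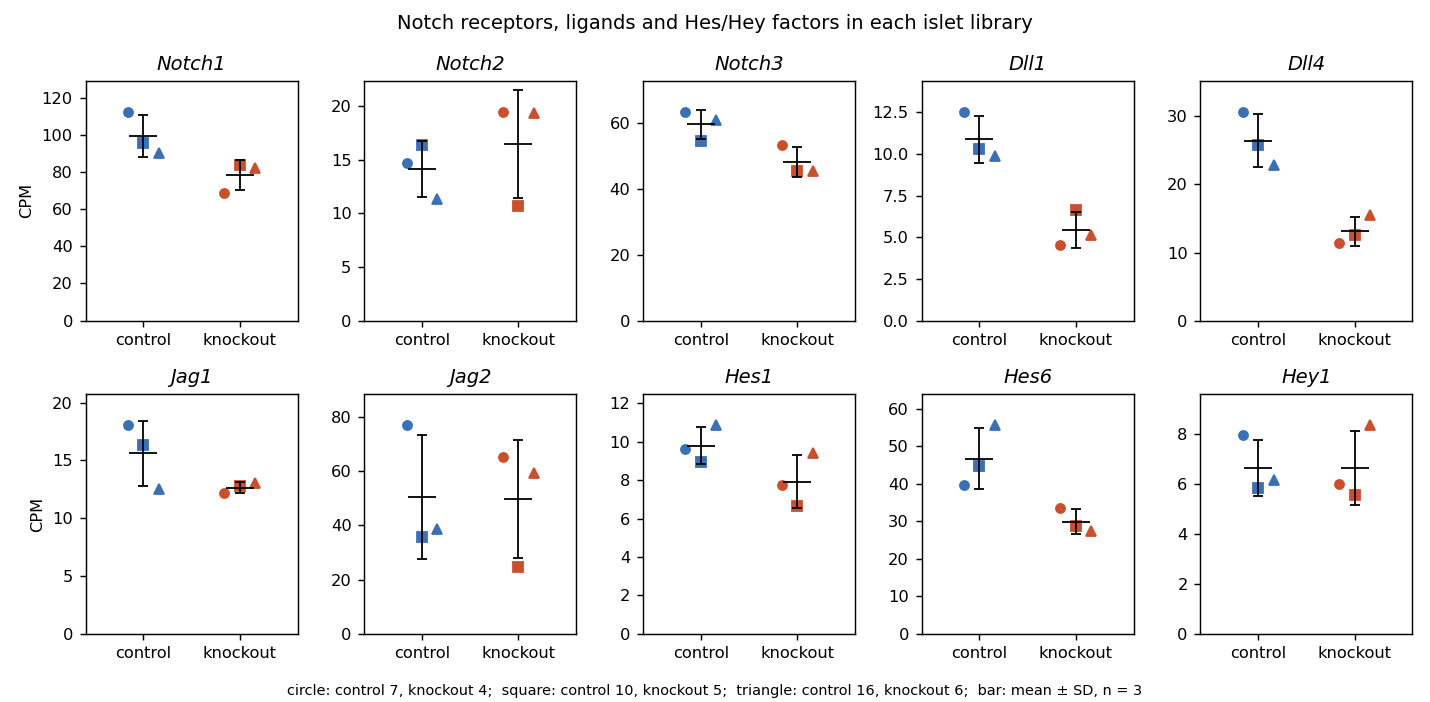
Level of each Notch gene (CPM, vertical axes from 0, a separate scale per gene) in the control (blue) and knockout (orange) libraries, with the mean and SD of 3 libraries. The groups are apart for Notch1, Notch3, Dll1, Dll4 and Hes6, and overlap for Notch2, Jag1, Jag2, Hes1 and Hey1.

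Dll4, a Delta-like ligand best known from sprouting vessels, was at 30.6, 25.8 and 22.8 CPM in control libraries 7, 10 and 16. It was at 11.4, 12.6 and 15.5 CPM in knockout libraries 4, 5 and 6. The groups did not overlap, and the lowest control library was well above the highest knockout library. The group means were 26.4 ± 3.9 CPM in control and 13.2 ± 2.13 CPM in knockout (SD, n = 3 each), a log2 fold change of -1.01 (SE 0.15, adjusted p = 0.00195).

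Dll1, a Delta-like ligand that sends the lateral inhibition signal among embryonic pancreas progenitors, was at 12.5, 10.3 and 9.88 CPM in control libraries 7, 10 and 16. In knockout libraries 4, 5 and 6 it was at 4.54, 6.63 and 5.14 CPM. All knockout values were below all control values. The log2 fold change was -1.0 (SE 0.18, adjusted p = 0.00491). In the GENCODE M21 gene models the non-coding gene A930024N18Rik covers 20.5% of the exon length of Dll1 on the opposite strand, and without a statement on strand use reads of the pair cannot be told apart. Smaller overlaps, each of 2.91% to 7.5% of exon length, were found for Notch1, Notch2, Notch3, Dll4 and Neurod1. For Neurod1 the largest was with Cerkl on the same strand (7.37%).

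The Jagged ligands did not pass. Jag1 was at 18.02, 16.3 and 12.5 CPM in control libraries 7, 10 and 16 and at 12.2, 12.8 and 13.0 CPM in knockout libraries 4, 5 and 6. The overlap came from control library 16, which lay among the knockout libraries. Its log2 fold change was -0.31 (SE 0.14, 95% interval -0.63 to 0.01, adjusted p = 0.150), and without control library 16 it passed at -0.44 (adjusted p = 0.0313).

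Jag2 varied most within groups. It was at 76.8, 35.9 and 38.7 CPM in control and at 65.0, 24.7 and 59.4 CPM in knockout libraries, in the same order of libraries, so that libraries 7, 4 and 6 were high and libraries 10, 16 and 5 low. The coefficient of variation was 45.3% in control and 43.9% in knockout, while that of the other 9 genes lay between 3.52% and 30.6%. The 95% interval of its log2 fold change ran from -1.36 to 1.31, so a difference of 2-fold in either direction was not excluded by these libraries.

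The promoters of the pair of ligands that fell about 2-fold and of Hes6 are shown because these 3 genes had the largest changes and their promoters differ in E-boxes, the CANNTG motif that Neurod1 and other bHLH factors bind. Each line gives the 250 bases before the outermost RefSeq start (build GRCm38.p6), 5′ to 3′ in the direction of the gene, with E-boxes in capitals.
Dll1, chr17:15376933-15377182, minus strand: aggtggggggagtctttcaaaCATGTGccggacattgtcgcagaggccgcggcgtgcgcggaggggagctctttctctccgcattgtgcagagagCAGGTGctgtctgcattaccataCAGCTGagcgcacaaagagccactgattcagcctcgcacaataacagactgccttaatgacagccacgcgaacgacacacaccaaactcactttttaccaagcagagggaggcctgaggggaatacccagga
Dll4, chr2:119325534-119325783, plus strand: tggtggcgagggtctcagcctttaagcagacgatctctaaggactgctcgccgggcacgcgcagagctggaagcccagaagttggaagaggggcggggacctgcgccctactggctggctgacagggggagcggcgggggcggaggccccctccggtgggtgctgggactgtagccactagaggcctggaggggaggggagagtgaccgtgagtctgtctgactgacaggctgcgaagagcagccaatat
Hes6, chr1:91414039-91414288, minus strand: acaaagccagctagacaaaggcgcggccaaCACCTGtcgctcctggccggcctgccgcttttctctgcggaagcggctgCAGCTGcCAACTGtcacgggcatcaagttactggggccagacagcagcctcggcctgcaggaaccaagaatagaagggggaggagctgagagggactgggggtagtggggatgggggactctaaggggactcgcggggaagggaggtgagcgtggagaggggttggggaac
The Dll1 and Hes6 windows each held 3 E-boxes and the Dll4 window held 0. In Dll1 they begin 229, 155 and 132 bases before the start, and in Hes6 220, 171 and 164 bases before it. Dll1 and Hes6 each have 2 RefSeq starts, of which only the outermost is described here, and Dll4 has 1. The RefSeq promoter table matched 8 of the 10 genes. Of these the Jag1 window held 1 E-box and those of Notch1, Notch2, Notch3 and Jag2 held 0. The form CAGCTG, which is 1 kind of CANNTG, was in the windows of Dll1, Jag1 and Hes6. Over all 32851 promoter windows in the table, 66.2% held at least 1 CANNTG and 13.0% at least 1 CAGCTG. The share of windows with 3 E-boxes was not counted. The Rbpj core GTGGGAA, searched on both strands as were the others, was in 0 of the 8 windows and in 5.42% of all windows. A match of letters is a description and not a binding site.

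Among the receptors, Notch1 was at 112, 95.3 and 90.4 CPM in control libraries 7, 10 and 16 and at 68.8, 83.5 and 82.1 CPM in knockout libraries 4, 5 and 6. The gap between the groups was narrow, from 83.5 CPM in the highest knockout library to 90.4 CPM in the lowest control library. The log2 fold change was -0.35 (SE 0.10, adjusted p = 0.0419). The call was lost without any 1 library except control library 16 (adjusted p up to 0.155), with no filter on low counts (0.0550), with RLE scaling (0.0522) and in limma-voom (0.0524). When the acinar marker level entered the model, the difference was -0.0661 (adjusted p = 0.759).

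Notch3, the receptor of mural cells, was at 63.2, 54.6 and 60.9 CPM in control and at 53.3, 45.4 and 45.3 CPM in knockout libraries, in the same order. Knockout library 4 lay just below control library 10. The log2 fold change was -0.31 (SE 0.09, adjusted p = 0.0366), and the call was lost with no filter on low counts (adjusted p = 0.0517). It was also lost in the fits that dropped knockout library 5, knockout library 6, control library 7 or control library 16 (adjusted p up to 0.114). Notch2 was at 14.7, 16.4 and 11.3 CPM in control and at 19.4, 10.7 and 19.4 CPM in knockout libraries. Its groups overlapped throughout, with a log2 difference of 0.22 (SE 0.25, 95% interval -0.37 to 0.80, adjusted p = 0.572).

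The authors' deposited table, made with another test, had adjusted p-values under the same threshold for 12.8% of its 19440 genes. In the authors' deposited table Dll1 (log2 fold change -0.98, adjusted p = 0.000295), Dll4 (-0.99, adjusted p = 4.99e-06) and Hes6 (-0.63, adjusted p = 0.0188) passed as lower. Notch1 (adjusted p = 0.0806) and Notch3 (adjusted p = 0.144) did not pass in the authors' deposited table.

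**Figure D2:**
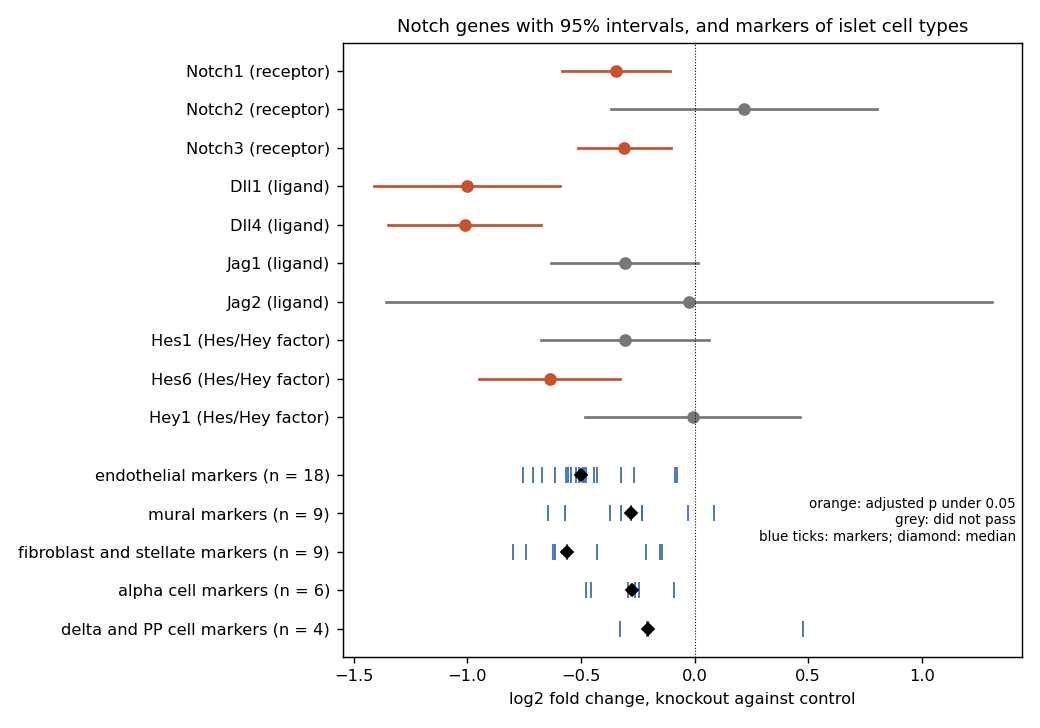
Log2 fold change of knockout against control (horizontal axis) for each Notch gene with its 95% interval, and below for single marker genes of islet cell types (ticks) with the list's median (diamonds). Dll1 and Dll4 lie near -1.0, beyond the endothelial median of -0.50. Notch1 and Notch3 lie near both the mural and the alpha cell median, each -0.28.

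The Hes and Hey factors are the transcription factors at the end of the pathway. Hes6 differs from its relatives in that it is known to antagonise Hes1 and to be switched on by proneural bHLH factors. It was at 39.6, 44.9 and 55.6 CPM in control libraries 7, 10 and 16 and at 33.7, 28.7 and 27.3 CPM in knockout libraries 4, 5 and 6. The groups did not overlap, and the means were 46.7 ± 8.14 and 29.9 ± 3.32 CPM (SD, n = 3 each). Hes6 fell by 0.64 on the log2 scale (SE 0.14, adjusted p = 0.0115), and without any 1 library the adjusted p stayed at or below 0.0444. In the model with acinar marker level Hes6 was at -1.02 (adjusted p = 0.00288). Hes6 was then the sole Notch gene of the 10 that passed, beside 10.9% of all genes tested. The summed acinar level overlapped between the genotypes only through control library 16 and knockout library 5. The fit used the markers' mean log2 CPM instead, whose overlap was not worked out, so it separates covariate and genotype poorly at best.

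Hes1, the repressor most directly tied to Notch activity, was at 9.61, 8.93 and 10.8 CPM in control and at 7.74, 6.63 and 9.40 CPM in knockout libraries. Knockout library 6 lay within the control range. The log2 difference was -0.31 (SE 0.16, 95% interval -0.68 to 0.06, adjusted p = 0.204). Hey1, a repressor of vessels and other Notch-responsive tissues, was at 7.95, 5.84 and 6.18 CPM in control and at 6.02, 5.56 and 8.36 CPM in knockout libraries. The groups overlapped, with a log2 difference of -0.0086 (SE 0.21, 95% interval -0.48 to 0.46, adjusted p = 0.981).

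To compare genes with each other, CPM was divided by exon length in kilobases (kb, GENCODE M21 models). In control islets Hes6 had the highest such level, 25.8 ± 4.5 CPM per kb (SD, n = 3). Notch3 (7.37 ± 0.55), Jag2 (7.24 ± 3.28), Notch1 (6.97 ± 0.80) and Dll4 (6.86 ± 1.01 CPM per kb) followed, and each overlapped its neighbour in this order. Hes1 stood apart from its neighbours at 4.81 ± 0.48 CPM per kb. Jag1 (2.68 ± 0.49), Dll1 (2.58 ± 0.33) and Hey1 (2.04 ± 0.35 CPM per kb) overlapped in turn, and Notch2 was lowest at 1.31 ± 0.24 CPM per kb. In knockout islets Hes6 was again highest at 16.5 ± 1.84 CPM per kb. Jag2 (7.14 ± 3.13), Notch3 (5.94 ± 0.57) and Notch1 (5.49 ± 0.57 CPM per kb) overlapped in turn. Dll4, at 3.42 ± 0.55 CPM per kb, overlapped Hes1 at 3.89 ± 0.68. Jag1 (2.17 ± 0.08) and Hey1 (2.04 ± 0.46 CPM per kb) overlapped, and Dll1 was lowest at 1.29 ± 0.26 CPM per kb, overlapping Notch2 at 1.53 ± 0.47.

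Markers of other islet cell types moved beside these genes. Of 18 endothelial markers 11 fell, 0 rose and 7 did not pass, with a median log2 fold change of -0.50. Their summed level was 1254 to 1267 CPM in control and 828 to 972 CPM in knockout libraries, and all 18 had counts in every library. The defining markers Pecam1 (-0.49), Cdh5 (-0.51) and Kdr (-0.44) all fell. Of 9 tested mural markers 0 passed in edgeR, limma-voom or DESeq2 (median -0.28; 3 were lower at an unadjusted p under 0.05 in edgeR), and their summed level overlapped between groups (233 to 282 CPM in control and 192 to 246 CPM in knockout). Among them Pdgfrb was at -0.23 (adjusted p = 0.0522), Rgs5 at -0.33 and Acta2 at -0.57. Of 9 fibroblast and stellate markers 4 fell, including Col1a1 (-0.80) and Col3a1 (-0.56), while Dcn (-0.14) did not pass. Their summed level was 911 to 1280 CPM in control and 653 to 858 CPM in knockout. Acinar markers summed to 14589 to 52629 CPM in control and 5202 to 15322 CPM in knockout libraries. Of the 21 acinar markers 2 fell and 19 did not pass, but 20 had a negative log2 fold change and the median was -1.83. Beyond the fits with a marker level in the model, the part of these cells in the Notch results was not tested.

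Set against the summed endothelial markers of the same library, the Notch genes differed in pattern. Notch1 was at 89.0, 76.0 and 71.3 CPM per 1000 CPM of endothelial markers in control libraries 7, 10 and 16 and at 73.7, 85.9 and 99.2 in knockout libraries 4, 5 and 6, so the groups overlapped. Notch3 overlapped as well (47.3 ± 3.4 in control and 52.9 ± 5.42 in knockout on this scale, SD, n = 3 each). Dll1 remained apart, at 9.92, 8.21 and 7.80 in control and 4.87, 6.83 and 6.21 in knockout libraries. Dll4 was at 24.3, 20.6 and 18.03 in control and at 12.2, 13.0 and 18.7 in knockout libraries, where only knockout library 6 reached into the control range. These ratios are a description of 3 libraries a group and were not tested. How many of all genes are apart on this scale was not counted.

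**Figure D3:**
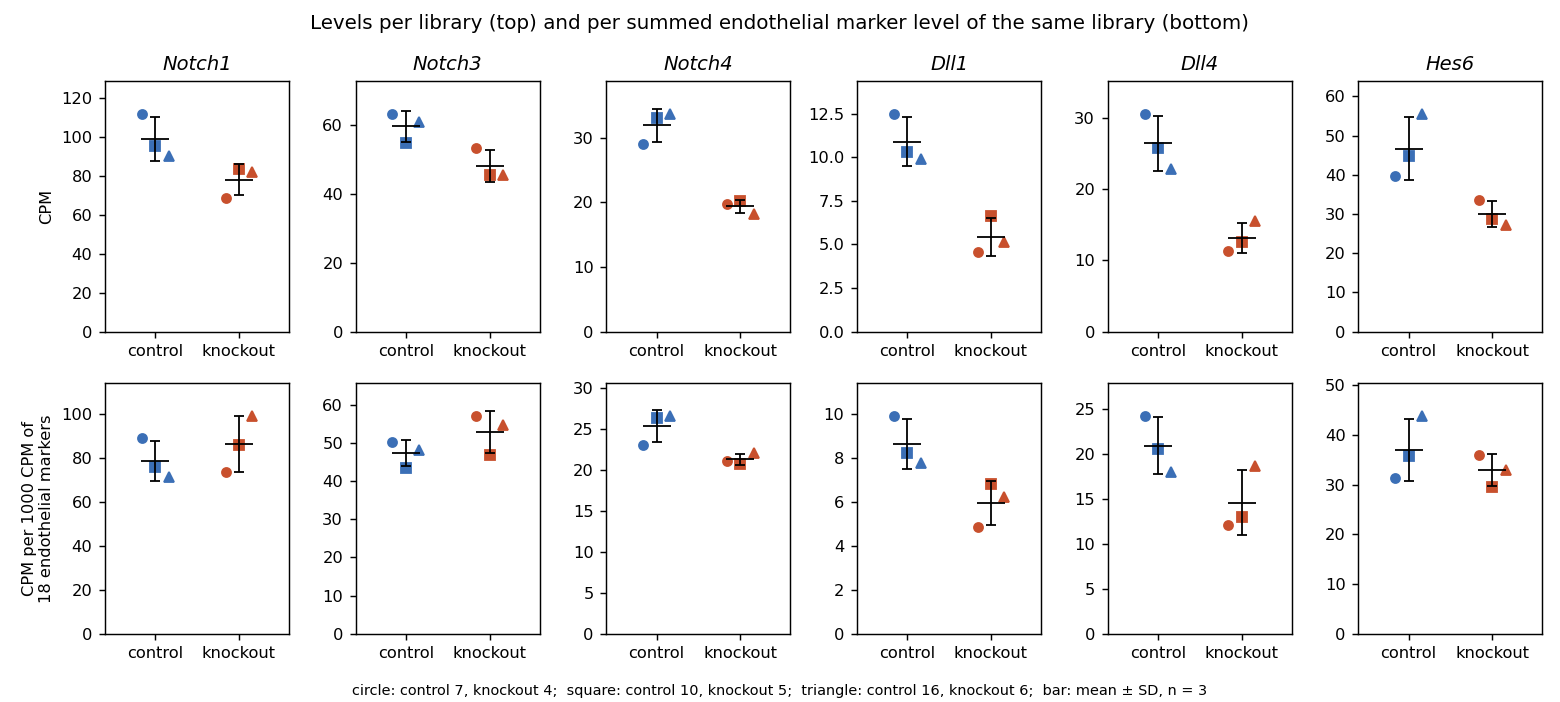
Top, CPM of 6 Notch genes in each library. Bottom, the same values per 1000 CPM of the 18 endothelial markers summed in that library, with mean and SD of 3 libraries. Dll1 and Notch4 stay apart between the groups on the lower scale, and Notch1, Notch3, Dll4 and Hes6 overlap. The share of all genes that are apart on the lower scale was not counted.

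When endothelial marker level entered the edgeR model, 0 of the 10 genes passed (3 were lower at an unadjusted p under 0.05), beside 0.575% of all genes tested. That level did not overlap between the genotypes, so in this fit covariate and genotype can hardly be told apart, and standard errors rose (0.59 for Dll1 and 0.31 for Dll4). Dll4 was then at -1.96 (adjusted p = 0.0501), Dll1 at -1.06 (adjusted p = 0.418), and Hes6 changed sign to 0.0492 (adjusted p = 0.958). With acinar marker level in the model Dll1 was at -0.63 (adjusted p = 0.131) and Dll4 at -0.68 (adjusted p = 0.0633). The acinar level was also tied to genotype, and its sum overlapped only between control library 16 and knockout library 5. The mean log2 CPM that entered the fit may overlap less or not at all, which was not worked out.

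Likeness over the 6 libraries was measured as the root-mean-square difference of log2 CPM after each gene's own mean was removed. A cell type list entered as the mean log2 CPM of its tested markers. Of the 10 lists, beta cell markers were nearest to Notch1 (0.109, next alpha cell 0.111) and to Jag1 (0.153, next alpha cell 0.170). The mean of the beta cell list holds the large fall of Ins1 (-3.50). Of its 9 markers only 2 had a negative log2 fold change, and the median was 0.27. Nearness to this list is therefore not likeness to most of its markers. Mural markers were nearest to Notch3 (0.0546, next alpha cell 0.0956). For Jag2 even the nearest list was far (mural 0.543, next alpha cell 0.561). Alpha cell markers were nearest to Hes1 (0.156, next duct 0.174) and Hey1 (0.243, next beta cell 0.276), with the next list almost as near. Endothelial markers were nearest to Dll1 (0.333), Dll4 (0.363) and Hes6 (0.149), with Schwann cell and neuron (0.346), duct (0.378) and duct (0.150) markers next and almost as near. Leukocyte markers were nearest to Notch2 (0.305, next alpha cell 0.428). Leukocyte markers summed to 315, 142 and 448 CPM in knockout libraries 4, 5 and 6, the order in which Notch2 was also high, low and high. In control libraries 7, 10 and 16 they summed to 182, 234 and 114 CPM, and Notch2 was highest in library 10 and lowest in library 16 there too. With the leukocyte level in the model, an alternative added after the data were seen, Notch2 was at -0.09 (SE 0.14, adjusted p = 0.688). Of the 10 genes 3 passed in that fit (21.9% of all genes tested), and 3 with no filter on low counts (18.7%). Among single genes the nearest to Dll4 were Dffb, Zfp174 and Kcnh6 (0.07 to 0.09), and to Dll1 Brsk2, AI836003 and Tlr2 (0.11 to 0.12). The nearest to Hes6 were Ecm1, Mirg and Sorbs3 (0.06 to 0.07), to Notch1 Acy1, Tbc1d24 and Glis2 (0.03 to 0.05) and to Notch3 Cebpg, Dbndd2 and Alkbh1 (0.03 to 0.04).

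The rest of the pathway was read from a list of 67 further genes, of which 61 were tested. Of these 6 rose, 11 fell and 44 did not pass, a share of 27.9% beside 24.4% of all genes tested. Their median log2 fold change was 0.0037. The genes that fell included a receptor, ligands and 4 receptor turnover genes, and those that rose were Adam10, Hes3 and 4 nuclear cofactors.

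Notch4, the endothelial receptor, was at 31.9 ± 2.52 CPM in control and 19.4 ± 1.01 CPM in knockout (SD, n = 3 each) and fell by 0.72 on the log2 scale (SE 0.09, adjusted p = 0.00112). Per 1000 CPM of endothelial markers it was at 25.3 ± 1.97 in control and 21.3 ± 0.66 in knockout. The groups did not overlap on that scale, for which no share over all genes was counted. The non-canonical ligands Dner (-0.90, SE 0.12) and Cntn1 (-1.24, SE 0.17), both known as membrane proteins of neurons, fell too. Cntn1 went from 71.6 ± 14.5 to 30.4 ± 5.21 CPM, and with acinar marker level in the model it was at -0.88 (adjusted p = 0.0552). Of 10 Schwann cell and neuron markers 3 fell beside them, Th (-2.25), Tubb3 (-1.63) and Prph (-1.30), and 2 rose, among them Ngfr (2.60). The part of these cells in the falls of Dner and Cntn1 was not tested. Dlk1 (-0.61, adjusted p = 0.214), Mfap2 (-0.72, adjusted p = 0.0509) and Mfap5 (-0.54) did not pass, and Dll3 and Dlk2 had too few counts to be tested.

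Of 4 ligand ubiquitination genes Mib2, an E3 ligase for ligands, fell (-0.37, SE 0.08, adjusted p = 0.0110), and of 5 glycosylation genes Lfng, the Lunatic fringe transferase that modifies receptors, fell (-0.66, SE 0.20, adjusted p = 0.0429). Lfng missed the threshold without any 1 library except control library 16 (adjusted p up to 0.162). Of 8 receptor turnover genes 4 fell, with Numbl, a Numb relative that restrains Notch, at -1.24 (SE 0.27, adjusted p = 0.0136), Dtx4 at -0.60, Dtx3 at -0.48 and Dtx2 at -0.48. The call of Numbl was lost without knockout library 6 (adjusted p = 0.0572). With acinar marker level in the model Numbl was at -0.41 (adjusted p = 0.215), Lfng at -0.29 (adjusted p = 0.577) and Dtx4 at -0.63 (adjusted p = 0.0879). Numb itself (-0.05) did not pass.

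Adam10, the protease that makes the first activating cut in ligand-bound receptors, rose from 91.4, 91.0 and 87.0 CPM in control libraries 7, 10 and 16 to 168, 186 and 171 CPM in knockout libraries 4, 5 and 6. The groups were far apart with little spread in either. The log2 fold change was 0.97 (SE 0.07, adjusted p = 4.38e-05). Of the 9 other cleavage genes, among them the gamma-secretase subunit Ncstn (0.12), 0 passed in edgeR, limma-voom or DESeq2 (2 were higher at an unadjusted p under 0.05 in edgeR).

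Among 14 corepressors of Rbpj, Tle4, a Groucho-type corepressor that Hes proteins recruit, was at 15.4, 14.2 and 14.4 CPM in control and at 39.2, 36.4 and 44.5 CPM in knockout libraries. It rose 2.73-fold, the largest rise of this role (log2 fold change 1.45, SE 0.10, adjusted p = 4.27e-05). Tle2 (0.44, SE 0.10) and Ncor1 (0.26, SE 0.07) also rose, and Tle3 (-0.54, SE 0.12) and Ctbp2 (-0.41, SE 0.10) fell. Leaving out control library 10 ended the call of Tle2 (adjusted p = 0.0568), and leaving out knockout library 4 or 6 that of Tle3 (adjusted p = 0.0548 and 0.0526). Of 9 genes of the activating complex Maml3, a Mastermind coactivator, rose (0.35, SE 0.09, adjusted p = 0.0240), and its call was lost when knockout library 6, control library 10 or control library 16 was dropped (adjusted p up to 0.0743). Tle2, Tle3 and Maml3 also missed the threshold with acinar marker level in the model (adjusted p = 0.180, 0.135 and 0.0534). Rbpj itself was at 17.4 ± 4.96 CPM in control and 23.5 ± 6.25 CPM in knockout and did not pass (0.44, SE 0.28, adjusted p = 0.300).

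**Figure D4:**
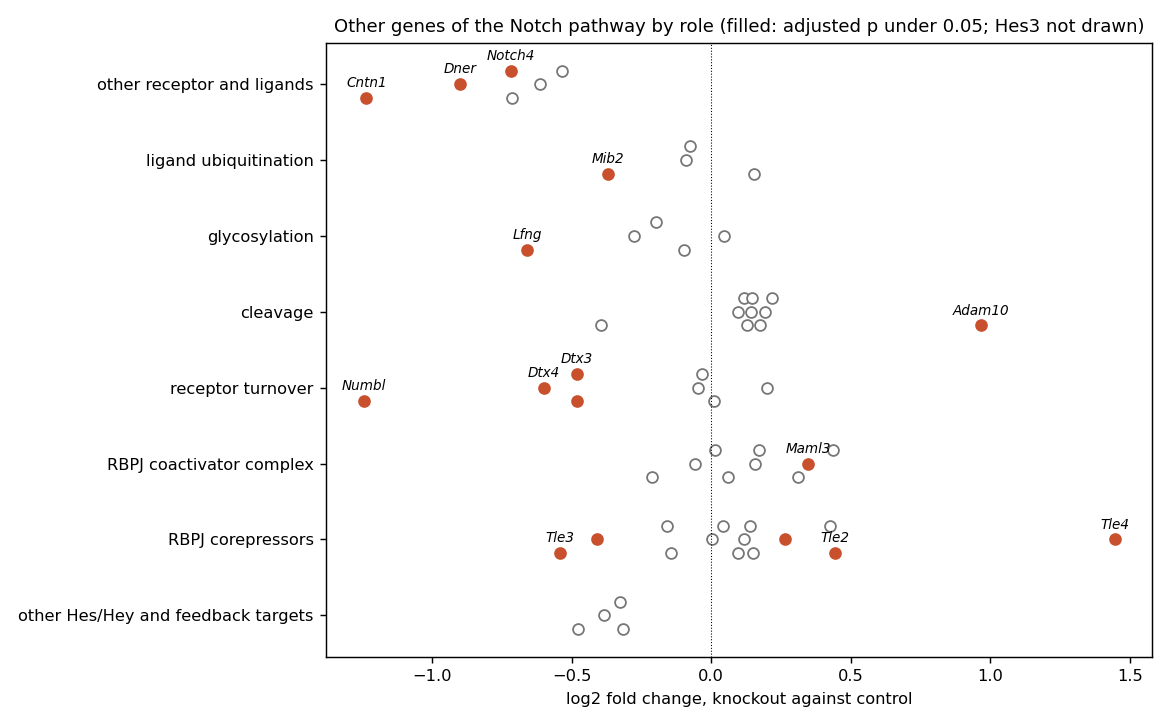
Log2 fold change of knockout against control (horizontal axis) for 60 tested genes of the Notch pathway outside the 10, in rows by role; filled points passed the test. The largest falls drawn are Numbl (-1.24) and Cntn1 (-1.24), and the largest rises drawn are Tle4 (1.45) and Adam10 (0.97).

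Of 9 further Hes and Hey genes and feedback targets 5 were tested. Hes3, a Hes family repressor known from neural progenitors, was counted 61, 52 and 43 times in the knockout libraries (4, 5 and 6) and 0 times in each control library. This was 3.56 ± 0.16 CPM in the knockout (SD, n = 3), and with 3 counts over the control group as the limit that a count of 0 allows, it was at least 64.7-fold higher (adjusted p = 0.000165). Where in the gene these reads lie cannot be seen from counts, so whether they come from the Hes3 transcript itself was not tested. The 3 knockout libraries were close to each other. Of its nearest neighbours on the chromosome, Icmt rose by 0.49 (SE 0.08, adjusted p = 0.00285), and Gpr153 (-0.36, adjusted p = 0.277) did not pass. The feedback targets Nrarp (-0.48, adjusted p = 0.0933), Dtx1 (-0.33), Hey2 (-0.38) and Heyl (-0.32) did not pass. Hes5, the other main target in neural tissue, had at most 3 counts in any library.

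**Figure D5:**
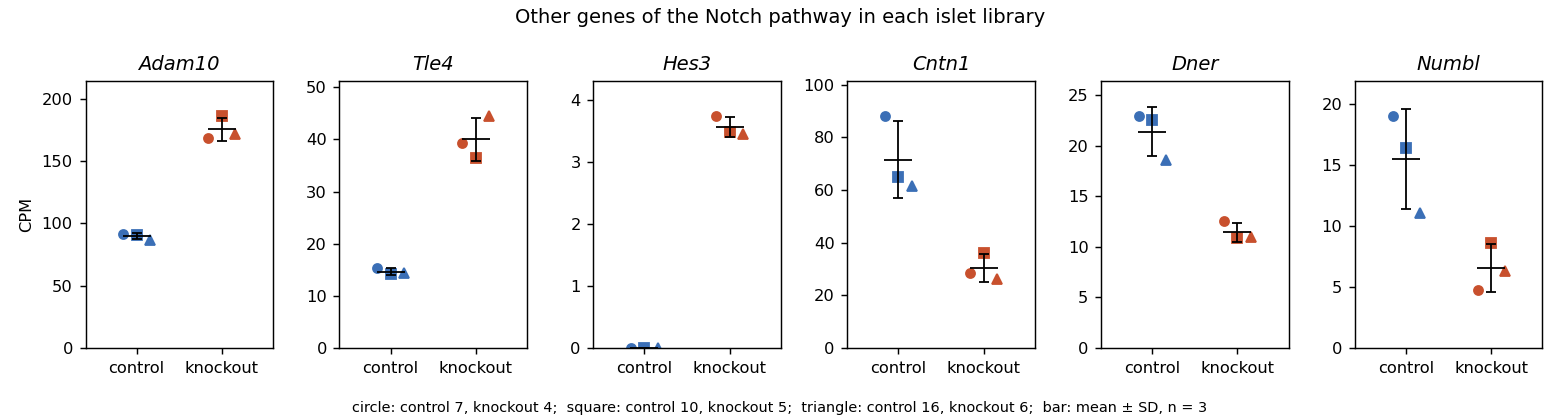
CPM (vertical axes from 0, a separate scale per gene) of 6 genes of the Notch pathway outside the 10 in control (blue) and knockout (orange) libraries, with mean and SD of 3 libraries. The groups are apart in all 6 panels, with the knockout higher for Adam10, Tle4 and Hes3 and lower for Cntn1, Dner and Numbl. The 6 were chosen among genes that passed, so separate groups go with the choice. Over all genes tested the groups did not overlap for 42.0%, in either direction.

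Of 11 proneural bHLH genes, the class that Hes factors oppose, 4 had enough counts to be tested and Neurod1 was the sole gene that passed. Neurog3 was at 6.77, 6.77 and 6.45 CPM in control and 4.79, 5.56 and 5.38 CPM in knockout libraries, a log2 difference of -0.35 (SE 0.15, adjusted p = 0.136). Its groups did not overlap, as for 42.0% of all genes tested in either direction.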

How the data were processed

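Total islet RNA was made into Illumina TruSeq libraries and read single-end, per the labels' protocols. For each library there is a deposited list of whole-number counts per gene. In a further deposited table the authors give, for each gene, scaled mean counts (a signal) for both genotypes, the ratio of the means, its log2, and raw and adjusted p-values. Build mm9, TopHat2 2.1.0, Cufflinks 2.0.2, bcl2fastq 1.8.4 and DESeq are named, per the submitters' processing notes. The sources used here do not give the counter, annotation or strand use. Exon lengths and overlaps (GENCODE M21) and promoters (RefSeq, GRCm38.p6) are of another build than the counts.

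edgeR 4.0.16 in R 4.3.3 was run on the counts: filterByExpr (minimum count 10, minimum total 15), TMM factors (0.988 to 1.02), robust dispersions and the quasi-likelihood F test of knockout against control, with Benjamini-Hochberg adjustment. Adjusted p-values come from this model unless another is named, as do standard errors and 95% intervals. Of all genes 5537 had an unadjusted p under 0.05. No 2 replicates were alike within sampling noise (chi-square over its degrees of freedom 15.9 to 41.5). The labels name no batch. The analysis was tested on simulated data with 100 genes changed 1.5-fold and 100 changed 2-fold. It recovered 54% and 97% of them, and 6.2% of its calls were false, so many changes of 1.5-fold or less would be missed. Alternatives were DESeq2 1.42.0, limma-voom (limma 3.58.1), other scalings and filters, marker levels as covariates and leaving out each library. The genes and lists were chosen with earlier results of these data known. Named were Neurod1, the 10 genes, up to 3 called genes of each pathway role (smallest p) or its most abundant gene, the 3 genes most like each called one (mean of at least 5 CPM), called proneural genes and defining markers. Other genes in the text were chosen after their values were seen.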

Additional observations from a re-analysis of the deposited data

How the results depend on the processing

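No paired analysis was possible because the groups share no replicate number. In all 18 alternatives 0 of the 10 Notch genes rose. The 5 falls became 3 with no filter on low counts, 1 with the acinar, 0 with the endothelial and 3 with the leukocyte marker level as a covariate, and 3 to 5 when 1 library was left out. Dll1 and Dll4 lost the call in the acinar and endothelial fits and in none of the other 16 alternatives. The 17 other pathway genes that passed became 8 with the acinar and 0 with the endothelial covariate (12 at an unadjusted p under 0.05 in edgeR), and 12 to 15 without 1 library. The 3600 genes called in all became 1615 and 85 in those fits, and 2378 to 2969 without 1 library. In the endothelial fit Hes6 (0.0492), Mib2 (0.0405), Maml3 (-0.227), Tle2 (-0.0803) and Tle3 (0.0889) changed sign and did not pass. That marker level did not overlap between the genotypes. The cause of these changes was not tested. Depth as a limit was not tested; the fewest counts of any of the 10 genes in a library were 64.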
